A study of Mus musculus with 32 samples.

Results

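The response to a ligature tied round a molar was compared between the alveolar bone and the gingiva of the same model, gene by gene. The comparison used the 4 control and 4 ligature libraries of each tissue, 16 of the 32 libraries in the series, and every one of them was chosen by its treatment label and not by a measured value. The mice were wild-type C57BL/6J males aged 9 weeks. Control mice (Co) were untreated. Ligature mice (Li) had a silk thread tied under anesthesia around the second molar on the left of the upper jaw. The other 16 libraries came from mice with composite resin placed on the chewing face of this molar, without the ligature (Tra) or with it (LiTra). They entered the fits through the gene filter, the scaling and the estimate of the spread between libraries, but not the contrasts. The labels name no transgene, deletion or drug besides the anesthesia, and the time from treatment to sampling is not given in the sources used here. What was tested is the bone change (Li against Co) minus the gingiva change, called here the tissue difference, together with the genes whose change passed the test in both tissues.

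A ligature holds bacterial plaque at the gum margin and is used in mice as a model of periodontitis, in which the gum is inflamed and the bone that holds the tooth is resorbed. Fibroblasts, osteoblast-lineage cells and lymphocytes supply RANKL, the cytokine encoded by Tnfsf11 that drives macrophage precursors to fuse into osteoclasts, and osteoprotegerin, encoded by Tnfrsf11b, is its soluble decoy receptor. Gingiva is a stratified epithelium over collagen-rich connective tissue, and leukocytes reach it from the blood across its venules. Alveolar bone carries marrow, so that the same leukocytes are also made and stored there. RNA of whole tissue was sequenced, and in such samples a smaller share of a cell type and a lower RNA level per cell cannot be told apart.

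The libraries held between 42662600 and 70793000 counts in bone and between 36913100 and 46959400 in gingiva. Marker genes followed the tissue labels. Levels are given as CPM, counts scaled to an equal library total after each total was multiplied by its TMM factor. The summed level of 10 basal keratinocyte genes was 17461 to 29132 CPM in the gingiva libraries and 313 to 2863 CPM in the bone libraries. The summed level of 16 osteoblast genes was 13975 to 43039 CPM in bone and 2277 to 5152 CPM in gingiva. Transcripts of nasal glands took 48.0% of the counts of bone Co 3, 24.3% of bone Li 2, 14.98% of bone Co 4 and 2.99% of bone Li 4, and less than 1% of every other bone library used here. In gingiva that share was at most 0.138%, and the counts below are also given without the 3 bone libraries of the largest shares. In gingiva, the summed level of 23 cornified and suprabasal epithelial genes was 64961 to 91614 CPM in the controls and 26813 to 79173 CPM in the ligature libraries. The plot of marker sums shows these levels library by library.

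The promoters of 5 genes are shown first because the results turn on these genes. The first 3 belong to genes that rose in both tissues, and the last 2 to genes called in opposite directions. Each is the 250 bases before the annotated transcription start in RefSeq on GRCm38.p6, written 5′ to 3′ on the strand of the gene. Capitals mark matches to TTGCNNAA, a core recognised by C/EBP factors, and to TGANTCA, the core recognised by AP-1, searched on both strands together with the core of NF-kB sites, GGGA and TTCC with any 2 bases between them, and CACGTG, an E-box. No match in these windows overlapped another. The counts were made on GRCm39, so these coordinates belong to the promoter table and not to the counts.
Saa3 (chr7:46715677-46715926, minus strand): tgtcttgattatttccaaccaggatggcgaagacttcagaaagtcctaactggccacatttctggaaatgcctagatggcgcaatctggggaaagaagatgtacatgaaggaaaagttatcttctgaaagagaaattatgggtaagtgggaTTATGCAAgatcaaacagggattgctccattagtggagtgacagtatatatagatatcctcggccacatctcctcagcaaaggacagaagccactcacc
Mmp3 (chr9:7445572-7445821, plus strand): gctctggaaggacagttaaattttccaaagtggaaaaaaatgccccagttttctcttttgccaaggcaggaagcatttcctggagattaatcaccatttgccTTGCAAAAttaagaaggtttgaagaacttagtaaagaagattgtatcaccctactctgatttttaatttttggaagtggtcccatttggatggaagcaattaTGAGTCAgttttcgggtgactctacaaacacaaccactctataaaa
Ptgs2 (chr1:150099781-150100030, plus strand): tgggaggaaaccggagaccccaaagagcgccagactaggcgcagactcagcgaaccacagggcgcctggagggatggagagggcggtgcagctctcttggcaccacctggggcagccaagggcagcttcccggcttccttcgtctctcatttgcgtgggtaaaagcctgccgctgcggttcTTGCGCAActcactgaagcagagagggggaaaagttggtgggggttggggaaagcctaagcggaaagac
Cxcl12 (chr6:117168285-117168534, plus strand): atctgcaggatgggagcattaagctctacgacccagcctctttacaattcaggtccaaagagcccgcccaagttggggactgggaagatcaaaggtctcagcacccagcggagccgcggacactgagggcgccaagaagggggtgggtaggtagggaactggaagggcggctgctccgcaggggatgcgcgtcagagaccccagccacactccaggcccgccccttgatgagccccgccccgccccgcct
Mt3 (chr8:94152357-94152606, plus strand): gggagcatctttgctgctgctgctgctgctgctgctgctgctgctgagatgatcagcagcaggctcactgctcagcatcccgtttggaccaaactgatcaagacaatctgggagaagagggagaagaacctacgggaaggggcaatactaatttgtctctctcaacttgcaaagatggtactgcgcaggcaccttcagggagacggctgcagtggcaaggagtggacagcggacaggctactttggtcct
In Saa3 the C/EBP match lies 99 to 92 bases upstream of the start and reads TTATGCAA, the reverse complement of the searched core. In Mmp3 an AP-1 match, TGAGTCA, lies 46 to 40 bases upstream and a C/EBP match, TTGCAAAA, 148 to 141 bases upstream. In Ptgs2 the C/EBP match TTGCGCAA lies 69 to 62 bases upstream. None of the 4 patterns was found in the Cxcl12 or Mt3 window, which says only that these letters are not there.

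Of the 22559 genes tested for the tissue difference, 461 passed (2.04%; edgeR quasi-likelihood test, two-sided, Benjamini-Hochberg adjusted p under 0.05). The change was more positive in bone for 307 genes (1.36% of those tested) and more negative in bone for 154 (0.683%). Of the 307, 279 had a positive estimate in bone and a negative one in gingiva, and of the 154, 126 had the reverse, but only 6 and 3 of these passed the test in both tissues. The median size of the difference was 0.68 on the log2 scale for the 307 and 1.53 for the 154. The 2 sets also differed in where their genes were higher without a ligature. In the controls 290 of the 307 had the higher level in gingiva, and 150 of the 154 had the higher level in bone, against 52.3% of all tested genes with the higher level in bone. The control libraries enter both the level and the difference, so this split is given as a description. Leaving out 1 library at a time changed the 461 to 909 (bone Tra 3) or 720 (gingiva Li 4), to 144, 248, 270, 273 or 275 (bone Co 4, Li 2, Li 3, Co 2 or Li 4), and to 147, 161, 239, 267, 272 or 298 (gingiva Li 2, Co 1, Li 1, Co 3, Co 4 or Co 2). Without bone Co 3, Co 4 and Li 2, the libraries with the largest nasal gland shares, 22 differences were left.

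In separate fits, 745 of 21205 genes passed for bone (3.51%), 565 of them higher (2.66%) and 180 lower (0.849%). In gingiva 1509 of 20143 passed (7.49%), 1046 higher (5.19%) and 463 lower (2.3%). At an unadjusted p under 0.05 were 3624 genes in bone, 4808 in gingiva and 3901 of the 22559 tested for the difference. Among the 19225 genes tested in both tissues, 175 rose in both (0.91%), 5 fell in both (0.026%) and 9 were called in opposite directions (0.0468%). The 175 made up 31.0% of the genes that rose in bone and 16.7% of those that rose in gingiva. Across all 19225 genes the bone and gingiva log2 changes had a Pearson r of 0.234 and a Spearman rho of 0.154, as a description over genes that share the same 16 libraries. Of the 307 differences more positive in bone, 133 belonged to genes that rose in bone and did not pass in gingiva, 64 to genes that fell in gingiva and did not pass in bone, and 101 to genes that passed in neither tissue alone. Of the 154 more negative in bone, 82 belonged to genes that rose in gingiva and did not pass in bone, 30 to genes that fell in bone and did not pass in gingiva, and 33 to genes that passed in neither. The 745 became 1232 without bone Tra 3 and 202, 345, 411, 432, 440 or 449 without bone Co 4, Li 4, Co 1, Li 2, Li 1 or Li 3, the 1509 became 521, 540, 695, 700 or 721 without gingiva Co 1, Li 2, Li 1, Co 3 or Co 4, and the 180 genes called alike became 87, 104, 105 or 115 without bone Co 4, gingiva Co 1, gingiva Li 2 or bone Li 4. Without bone Co 3, Co 4 and Li 2 together, 7 genes passed in bone, 5 were called alike and 0 in opposite directions, and of the bone calls of the lists counted below, 1 of collagen and matrix assembly was left. The osteoclast and B cell lists then had 12 and 16 genes at an unadjusted p under 0.05 in bone and bone medians of 0.78 and -1.91.

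**Figure D1:**
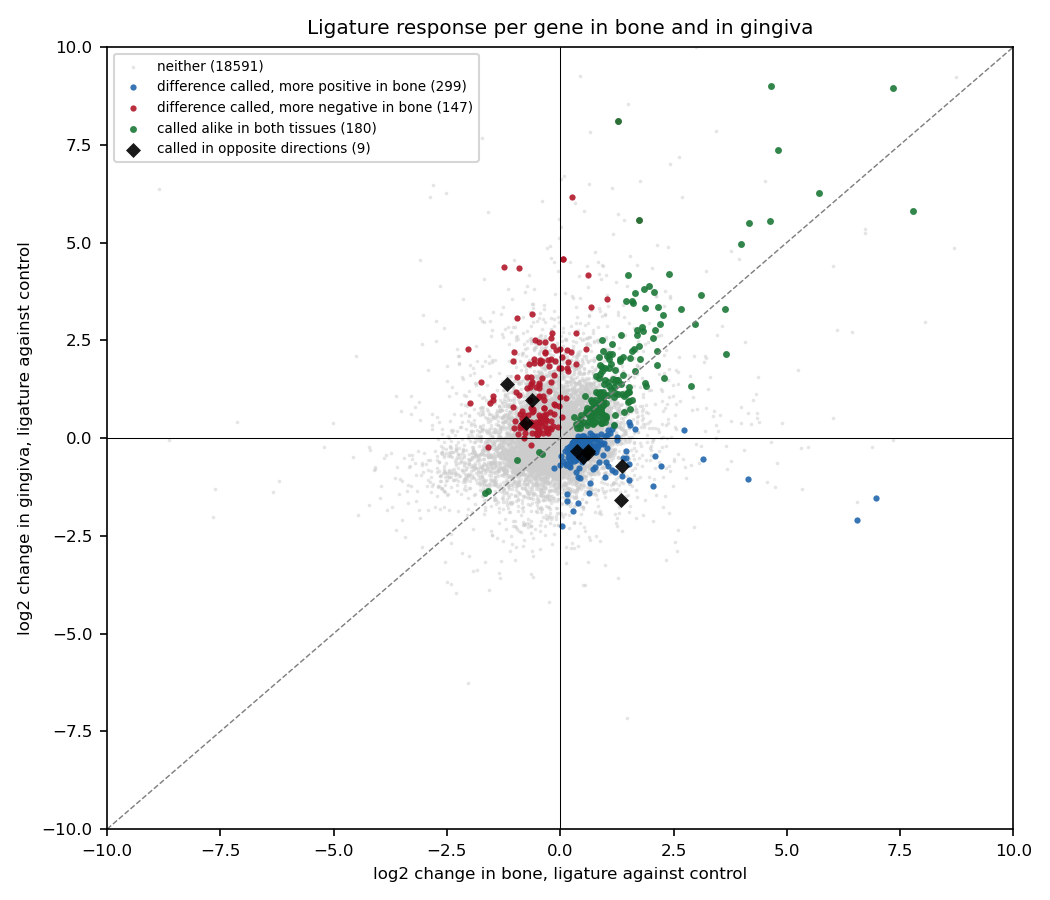
Log2 change of each gene in bone (x axis) and in gingiva (y axis), ligature against control, for the 19225 genes tested in both tissues, with 2 genes outside the plotted range. Green points are the 180 genes called alike, blue and red points the genes with a called tissue difference, and black diamonds the 9 genes called in opposite directions; the dashed line marks equal change.

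Saa3, Mmp3 and Il6 were among the genes with the largest increase in both tissues. Saa3 (ENSMUSG00000040026.9), a serum amyloid A made at sites of inflammation, measured 1.66, 2.80, 0.495 and 3.33 CPM in bone Co 1 to 4 and 525, 173, 358 and 318 CPM in bone Li 1 to 4. In gingiva it measured 0.436, 2.16, 0.146 and 1.96 CPM in Co and 1055, 1067, 109 and 80.8 CPM in Li. Every ligature library of both tissues lay above every control library, and within gingiva Li 1 and Li 2 were far above Li 3 and Li 4. Its log2 change was 7.35 ± 0.62 (SE) in bone (edgeR adjusted p = 9.46e-05) and 8.94 ± 1.28 in gingiva (adjusted p = 0.00186). The tissue difference was -1.59, with a 95% interval of -3.93 to 0.76 (adjusted p = 0.525).

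Mmp3 (ENSMUSG00000043613.9), which encodes stromelysin-1, a protease that cuts proteoglycans and activates other metalloproteinases, measured 0.571, 1.81, 1.31 and 0.991 CPM in bone Co and 113, 18.6, 83.8 and 32.3 CPM in bone Li. Its gingiva values were 3.27, 3.35, 3.60 and 3.47 CPM in Co and 617, 364, 33.6 and 45.0 CPM in Li. Both tissues started from a few CPM, the ligature libraries did not overlap the controls, and gingiva Li 1 and 2 were again the highest. The log2 change was 5.71 ± 0.74 in bone and 6.27 ± 1.01 in gingiva (adjusted p = 0.00208 and 0.00361). Ptgs2 (ENSMUSG00000032487.9), the inducible cyclooxygenase of prostaglandin synthesis, measured 1.27, 1.21, 1.77 and 0.563 CPM in bone Co and 16.2, 11.7, 23.2 and 8.54 CPM in bone Li. The gingiva libraries held 3.25, 10.3, 5.38 and 6.88 CPM in Co and 62.9, 154, 11.4 and 25.5 CPM in Li. Gingiva Li 3 lay just above the highest gingiva control, and the other ligature libraries lay clear of their controls. Its log2 change was 3.63 ± 0.67 in bone and 3.30 ± 0.75 in gingiva (adjusted p = 0.00947 and 0.0179), and the gingiva call was lost without gingiva Co 1, Co 3, Co 4 or Li 2.

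Il6, the cytokine that induces the acute-phase response, measured 0.147, 0.233, 0.637 and 0.180 CPM in bone Co and 16.1, 5.87, 5.37 and 5.41 CPM in bone Li. In the gingiva libraries it stood at 0.0969, 0.0958, 0 and 0.0794 CPM in Co and 20.7, 25.2, 0.243 and 0.532 CPM in Li. Gingiva Li 3 and 4 thus stayed close to the controls while Li 1 and 2 were far above them, and without gingiva Co 1 the gingiva call was lost. The log2 change was 4.80 ± 0.88 in bone and 7.37 ± 1.60 in gingiva (adjusted p = 0.00909 and 0.0147). The other genes with the largest shared increase were Prg4, a lubricating proteoglycan (3.997 in bone and 4.97 in gingiva on the log2 scale), the monocyte chemokine Ccl2 (3.11 and 3.66), the aggrecanase Adamts4 (2.66 and 3.30), Angptl4, an inhibitor of lipoprotein lipase (2.40 and 4.19), and Ms4a6d, a gene of macrophages (2.27 and 3.14). All of these passed in both tissues, and Angptl4 lost its bone call without any of 6 bone libraries.

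Timp1, which encodes an inhibitor of metalloproteinases, measured 60.9, 81.2, 46.8 and 51.1 CPM in bone Co and 293, 244, 224 and 254 CPM in bone Li. For gingiva the values were 8.51, 6.97, 12.8 and 4.58 CPM in Co and 154, 189, 40.3 and 50.6 CPM in Li. The bone libraries were tight in each group, while in gingiva Li 1 and 2 were far above Li 3 and 4. Its log2 change was 2.08 ± 0.25 in bone and 3.73 ± 0.55 in gingiva, and the tissue difference of -1.64 (95% interval -2.86 to -0.43) did not pass (adjusted p = 0.135). Over all tested genes 2.66% rose in bone, and in gingiva 5.19% rose and 2.3% fell. Of 17 metalloproteinases and their inhibitors, 4 rose in bone, and in gingiva 8 rose and 1 fell. The 4 were Mmp3, Mmp13, Adamts4 and Timp1, and all 4 rose in gingiva too. Of 24 genes of collagen and matrix assembly, 8 rose in bone and 13 in gingiva, 7 of them in both, with median log2 changes of 0.83 and 1.07 against -0.0185 and 0.00453 over all tested genes. Among these, Fbn1 of the elastic microfibrils changed by 1.14 in bone and 2.16 in gingiva, and Vcan, the large proteoglycan of provisional matrix, by 1.53 and 1.30. Bdkrb1, the inducible bradykinin receptor, changed by 3.66 and 2.15, and Socs3, a feedback inhibitor of IL-6 signalling, by 1.62 and 2.29.

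**Figure D2:**
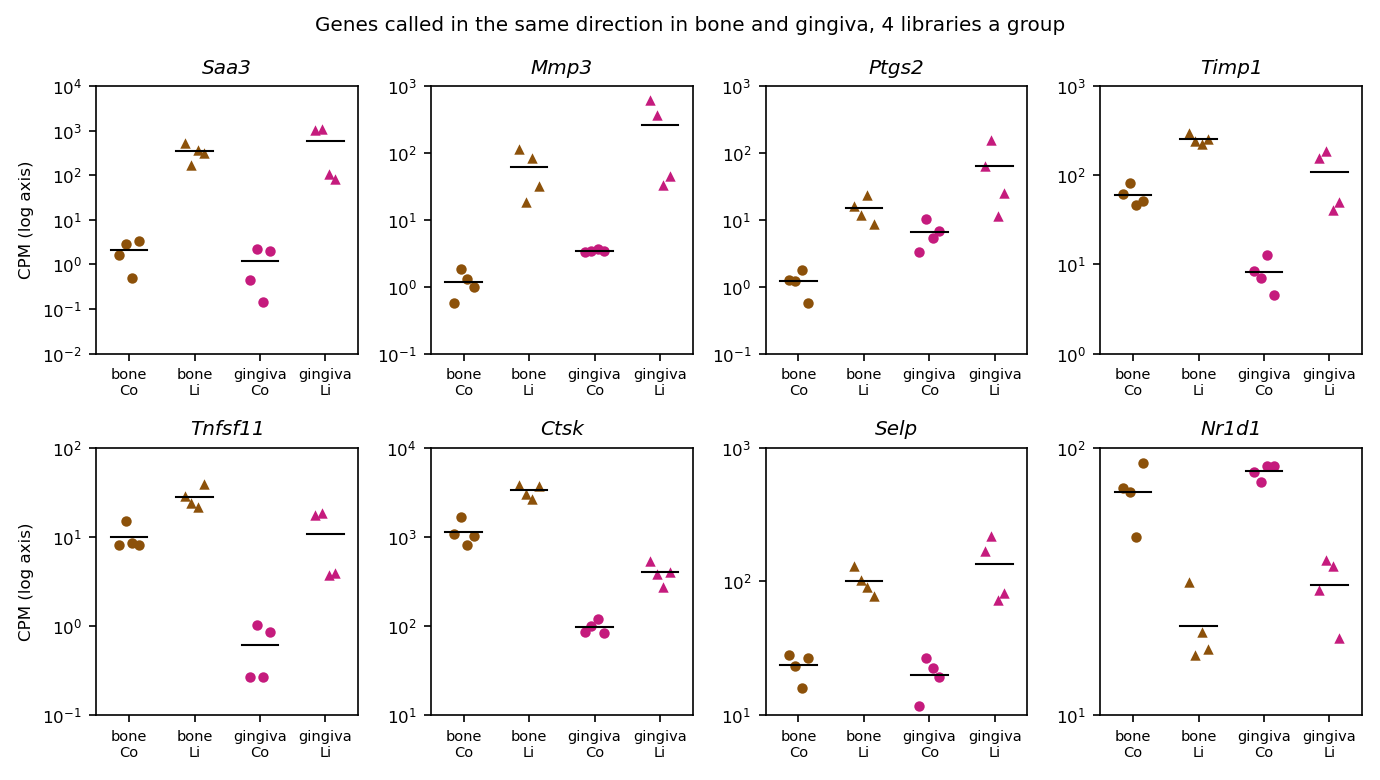
CPM (y axis, logarithmic, scaled by TMM) of 8 genes called in the same direction in both tissues, in each library of bone and gingiva (x axis, circles Co, triangles Li, black bars the mean of 4). Saa3, Mmp3, Ptgs2, Timp1, Tnfsf11, Ctsk and Selp were higher and Nr1d1 lower in Li, and the Co levels of Tnfsf11 and Ctsk were far lower in gingiva than in bone.

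Osteoclast genes rose in both tissues. Of 19 osteoclast genes, 12 rose in bone and 15 in gingiva, 11 of them in both, and none fell. The shares of all tested genes that rose were 2.66% in bone, 5.19% in gingiva and 0.91% in both. For the tissue difference 0 of 19 passed by edgeR, and DESeq2 called 5 more negative in bone and limma-voom 0. By edgeR 10 were under an unadjusted p of 0.05, against 3901 of all 22559 tested genes. Their median log2 change was 1.02 in bone and 2.11 in gingiva. The gingiva libraries also held osteoblast genes, at a summed level of 2277 to 5152 CPM. Which cells made the osteoclast genes there was not tested. Ctsk (ENSMUSG00000028111.5), the collagen-degrading cathepsin K, measured 1058, 1646, 809 and 1024 CPM in bone Co and 3844, 3021, 2650.0 and 3683 CPM in bone Li. The values in gingiva were 85.6, 101, 119 and 82.4 CPM in Co and 535, 386, 269 and 401 CPM in Li. Groups were apart in both tissues, and even the highest gingiva ligature library stayed below the lowest bone control. The log2 change was 1.54 ± 0.29 in bone and 2.04 ± 0.39 in gingiva (adjusted p = 0.0113 and 0.00792), a tissue difference of -0.50 (95% interval -1.52 to 0.52, adjusted p = 0.686), and the bone call was lost without bone Co 4.

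Ocstamp, which is needed for the fusion of osteoclast precursors, measured 7.98, 16.4, 9.31 and 9.28 CPM in bone Co and 42.7, 33.8, 30.5 and 48.6 CPM in bone Li. In gingiva it measured 0.339, 0.575, 0.438 and 0.476 CPM in Co and 8.11, 7.17, 4.27 and 6.403 CPM in Li. Bone Co 2 was the highest bone control, and the gingiva controls were all under 1 CPM. Its log2 change was 1.85 ± 0.30 in bone and 3.82 ± 0.59 in gingiva, with a tissue difference of -1.96 (95% interval -3.27 to -0.66, adjusted p = 0.0965). Atp6v0d2, the proton pump subunit of osteoclasts, changed by 1.66 ± 0.26 in bone and 3.72 ± 0.75 in gingiva, a difference of -2.05 (adjusted p = 0.154). The fusion gene Dcstamp changed by 1.86 and 3.32, and the sodium-proton exchanger Slc9b2 by 1.82 and 2.75, and the gingiva call of Dcstamp was lost without any of 5 libraries. Acp5, tartrate-resistant acid phosphatase, passed in gingiva (2.28 ± 0.37, adjusted p = 0.00407) and not in bone (1.02 ± 0.30, adjusted p = 0.0782). Its difference of -1.26 did not pass either (adjusted p = 0.165).

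Atp6v1a (ENSMUSG00000052459.14), the catalytic subunit of the vacuolar proton pump, was among the 3 genes called alike whose size of change differed between the tissues. It measured 157, 220.1, 149 and 134 CPM in bone Co and 480.2, 346, 317 and 367 CPM in bone Li. Its gingiva values were 161, 161, 158 and 173 CPM in Co and 216, 206, 188 and 214 CPM in Li. Control levels were alike in the tissues, and the ligature libraries were higher in both without overlap, by more in bone. The change was 1.19 ± 0.16 in bone and 0.34 ± 0.08 in gingiva, and the tissue difference was 0.86 ± 0.18 (edgeR adjusted p = 0.0140), which passed without each of the 32 libraries in turn, while the gingiva call was lost without gingiva Co 1, Co 3, Li 1 or Li 2. Without bone Co 3, Co 4 and Li 2 together, the difference of Atp6v1a was 0.70 and did not pass (edgeR adjusted p = 0.165). The other 2 genes called alike with a called tissue difference were Prss46 and Nyap2, which changed by more in gingiva.

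Tnfsf11 (ENSMUSG00000022015.9), which encodes RANKL, rose in both tissues from different levels. It measured 8.13, 15.1, 8.49 and 7.996 CPM in bone Co and 28.6, 23.99, 21.5 and 38.7 CPM in bone Li. The gingiva libraries held 0.267, 1.03, 0.268 and 0.847 CPM in Co and 17.3, 18.5, 3.69 and 3.88 CPM in Li. The gingiva controls were low, and gingiva Li 1 and 2 rose past every bone control, while Li 3 and 4 stayed below all of them. The log2 change was 1.50 ± 0.28 in bone and 4.17 ± 0.74 in gingiva (adjusted p = 0.0109 and 0.00553). The difference of -2.66 had a 95% interval of -4.22 to -1.10 that is not adjusted for the number of genes, and an adjusted p of 0.0609. Without bone Co 4 the bone call was lost.

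Tnfrsf11b, the decoy receptor, measured 43.0, 34.2, 18.5 and 25.4 CPM in bone Co and 30.1, 45.0, 47.0 and 53.0 CPM in bone Li. In the gingiva libraries it stood at 11.3, 21.5, 16.1 and 20.8 CPM in Co and 26.2, 29.3, 10.2 and 29.6 CPM in Li. Groups overlapped in both tissues, and neither the bone value of 0.54 ± 0.26 nor the gingiva value of 0.46 ± 0.32 passed (adjusted p = 0.317 and 0.428). Mmp13, the collagenase of osteoblasts and hypertrophic cartilage, measured 969, 1611, 706 and 987 CPM in bone Co and 5070.2, 4493, 3104 and 4044 CPM in bone Li. For gingiva the values were 50.1, 50.4, 34.7 and 40.5 CPM in Co and 942, 1011, 259 and 367 CPM in Li. All ligature libraries were above the controls of their tissue. The change was 1.97 ± 0.31 in bone and 3.88 ± 0.52 in gingiva, and the difference of -1.91 did not pass (adjusted p = 0.0791). Ccl9, a chemokine that osteoclasts make, rose in both (1.61 and 3.46).

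The 5 genes that fell in both tissues included the clock genes Nr1d1 and Dbp. Nr1d1 (ENSMUSG00000020889.12), the repressor REV-ERB alpha of the circadian loop, measured 70.7, 68.0, 46.1 and 87.3 CPM in bone Co and 31.4, 16.7, 20.5 and 17.7 CPM in bone Li. The values in gingiva were 81.0, 74.5, 84.9 and 85.0 CPM in Co and 29.3, 37.8, 36.2 and 19.5 CPM in Li. No ligature library reached the lowest control in either tissue. Its log2 change was -1.66 ± 0.32 in bone and -1.40 ± 0.19 in gingiva (adjusted p = 0.0135 and 0.00148), and the bone call was lost without bone Co 4. Dbp, a clock-driven transcription factor, changed by -1.60 ± 0.34 in bone and -1.36 ± 0.37 in gingiva (adjusted p = 0.0197 and 0.0379), calls lost without any of 4 bone and any of 8 gingiva libraries. Of 15 clock genes these 2 fell in bone and 6 fell in gingiva, against 0.849% and 2.3% of all tested genes, and none rose. The hour of sampling is not given in the sources used here. The other 3 were Cbx7, a Polycomb protein (-0.95 in bone, -0.57 in gingiva), the nuclear receptor coactivator Ncoa2 (-0.39 and -0.41) and Tprgl (-0.46 and -0.36). The gingiva calls of Cbx7, Ncoa2 and Tprgl were lost without any of 6, 1 and 4 gingiva libraries.

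Among the endothelial genes, the selectins Selp and Sele rose in both tissues, and Vcam1, Icam2 and Ackr1 passed for the tissue difference. Selp, the P-selectin on which leukocytes begin to roll, measured 28.2, 23.4, 15.99 and 26.9 CPM in bone Co and 129, 103, 90.9 and 78.0 CPM in bone Li. In gingiva it measured 11.6, 26.7, 22.6 and 19.4 CPM in Co and 168, 219, 72.0 and 81.3 CPM in Li. Both tissues began at a like level, and every ligature library lay above every control. Selp changed by 2.08 ± 0.31 and 2.75 ± 0.42 and Sele, E-selectin, by 1.74 ± 0.27 and 2.35 ± 0.41, with all 4 changes called. Both selectins also had the larger value in gingiva, but neither passed for the tissue difference.

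Vcam1 (ENSMUSG00000027962.15), on which leukocytes arrest and which marrow stroma also carries, measured 166, 148, 128 and 168 CPM in bone Co and 144, 113, 111 and 93.8 CPM in bone Li. Its gingiva values were 10.6, 8.24, 10.4 and 9.26 CPM in Co and 40.1, 35.1, 15.7 and 19.6 CPM in Li. The gingiva groups were apart, and the bone groups overlapped with Li mostly lower. The gingiva change was 1.53 ± 0.25 (adjusted p = 0.00382), the bone value was -0.40 ± 0.25 (adjusted p = 0.462), and the tissue difference was -1.92 ± 0.37 (edgeR adjusted p = 0.0101). That call held without each of the 32 libraries in turn. It was lost without bone Co 3, Co 4 and Li 2 together, where the difference was -1.96 (edgeR adjusted p = 0.0907).

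Icam2, a constitutive endothelial adhesion molecule, measured 10.8, 13.8, 7.61 and 11.8 CPM in bone Co and 11.5, 11.5, 11.5 and 8.96 CPM in bone Li, which overlap. The gingiva libraries held 1.11, 2.97, 2.07 and 2.54 CPM in Co and 13.2, 7.74, 4.71 and 4.43 CPM in Li, which do not. It rose in gingiva by 1.79 ± 0.34, did not pass in bone, and had a tissue difference of -1.81 ± 0.40 (adjusted p = 0.0186), which was lost without gingiva Li 1. Ackr1, the chemokine receptor of venules, rose in gingiva by 1.71 ± 0.23 against a bone value of 0.18 ± 0.30 that did not pass. Its tissue difference of -1.52 ± 0.39 (adjusted p = 0.0396) was lost without any of 15 libraries. Of 18 endothelial genes, 3 rose in bone and 13 in gingiva, with medians of 0.32 and 1.29, against 2.66% and 5.19% of all tested genes. For the tissue difference 3 passed, all of them more negative in bone, against 0.683% of all tested genes. Without bone Co 3, Co 4 and Li 2, 0 of 18 passed for the difference by edgeR and 8 were at an unadjusted p under 0.05. Their summed level was 279 to 346 CPM in gingiva Co and 539 to 1057 CPM in gingiva Li, and 601 to 893 and 889 to 1030 CPM in bone. The gingiva sums did not overlap and the bone sums did.

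Cxcl12 (ENSMUSG00000061353.12), the chemokine by which marrow stroma retains stem cells, B cell precursors and neutrophils, was called in opposite directions. It measured 761, 779, 537 and 789.7 CPM in bone Co and 357, 341, 340.4 and 237 CPM in bone Li. In the gingiva libraries it stood at 42.5, 46.5, 52.7 and 38.1 CPM in Co and 141, 221, 61.1 and 44.3 CPM in Li. All bone ligature libraries were below all bone controls. In gingiva Li 1 and 2 were clearly higher, Li 3 slightly, and Li 4 lay inside the range of the controls. The change was -1.17 ± 0.30 in bone (adjusted p = 0.0456) and 1.38 ± 0.35 in gingiva (adjusted p = 0.0292), and the tissue difference was -2.54 ± 0.49 (edgeR adjusted p = 0.0101). The difference passed without each of the 32 libraries in turn. The bone call was lost without any of 13 of the 16 bone libraries and the gingiva call without any of 6 of the 16 gingiva libraries, while the difference was -2.68 (adjusted p = 0.0735) without bone Co 3, Co 4 and Li 2 together.

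The other 2 genes lower in bone and higher in gingiva were Tmc6 and Grina. Tmc6, a transmembrane channel-like protein that binds a zinc transporter, measured 67.0, 58.1, 57.5 and 68.6 CPM in bone Co and 37.9, 35.3, 43.5 and 32.6 CPM in bone Li. For gingiva the values were 30.7, 32.3, 32.2 and 37.5 CPM in Co and 43.2, 47.6, 42.3 and 39.5 CPM in Li. The ligature libraries of the 2 tissues came close to one level, with no overlap between groups in either tissue. The change was -0.76 ± 0.10 in bone and 0.39 ± 0.11 in gingiva, a tissue difference of -1.13 ± 0.15 (adjusted p = 0.000384). Grina, a membrane protein that protects from cell death, measured 193, 154, 154 and 205 CPM in bone Co and 139, 114, 122 and 86.0 CPM in bone Li. The values in gingiva were 40.4, 46.4, 47.8 and 49.2 CPM in Co and 106, 141, 58.4 and 55.9 CPM in Li. The groups were apart in both tissues, in gingiva mainly through Li 1 and 2. The change was -0.62 ± 0.16 in bone and 0.98 ± 0.23 in gingiva, with a difference of -1.59 ± 0.30 (adjusted p = 0.00909). The bone call of Grina was lost without any of 13 bone libraries and its gingiva call without any of 4 gingiva libraries, and the gingiva call of Tmc6 was lost without any of 7.

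**Figure D3:**
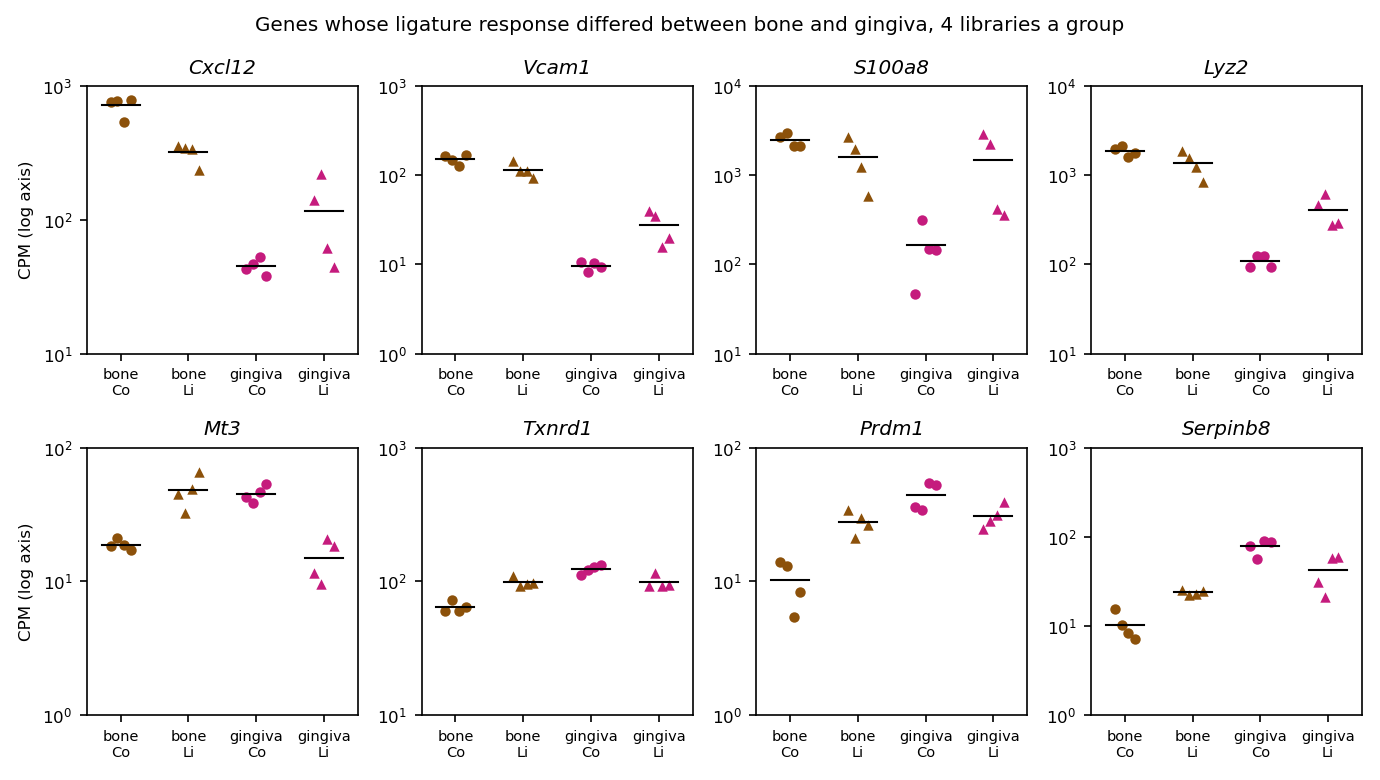
CPM (y axis, logarithmic, scaled by TMM) of 8 genes with a called tissue difference, in each library of bone and gingiva (x axis, circles Co, triangles Li, black bars the mean of 4). Cxcl12, Vcam1, S100a8 and Lyz2 had the higher control level in bone and rose in gingiva, and Mt3, Txnrd1, Prdm1 and Serpinb8 had the higher control level in gingiva and rose in bone.

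S100a8, Lyz2 and Itgam, genes of neutrophils and other myeloid cells, rose in gingiva, did not pass in bone and differed between the tissues. S100a8 (ENSMUSG00000056054.10), a subunit of calprotectin, measured 2705, 2953, 2144 and 2120.2 CPM in bone Co and 2651, 1958, 1239 and 577 CPM in bone Li. In gingiva it measured 46.4, 314, 148 and 146 CPM in Co and 2878, 2266, 421 and 356 CPM in Li. Gingiva Li 1 and 2 came to the level of bone, Li 3 and 4 lay just above the highest gingiva control, and bone Li 4 was the lowest bone library. The gingiva change was 3.18 ± 0.76 (adjusted p = 0.0226), the bone value -0.63 ± 0.51 (adjusted p = 0.593), and the tissue difference -3.80 ± 0.95 (adjusted p = 0.0348). The difference was lost without any of 10 of the 32 libraries and the gingiva call without any of 5 of the 16 gingiva libraries.

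Lyz2, lysozyme of granulocytes and macrophages, measured 1969.8, 2145, 1591 and 1751 CPM in bone Co and 1876, 1569, 1239 and 845 CPM in bone Li. Its gingiva values were 94.6, 124, 123 and 94.1 CPM in Co and 457, 618, 277 and 294 CPM in Li. The 4 gingiva ligature libraries were all above the controls, and in bone Li ran from the range of the controls down to far below it. The change was 1.92 ± 0.41 in gingiva, the bone value of -0.44 ± 0.30 did not pass, and the difference was -2.35 ± 0.53 (adjusted p = 0.0210), lost, like the gingiva call, without gingiva Co 1 or gingiva Li 2. Itgam, the integrin CD11b of myeloid cells, had a gingiva change of 2.46 ± 0.54, a bone value of -0.35 ± 0.39 that did not pass, and a difference of -2.79 ± 0.70 (adjusted p = 0.0354), lost without any of 9 libraries, and its gingiva call was lost without gingiva Co 1 or Li 2. Of 16 neutrophil genes, 3 rose in gingiva and 0 passed in bone, with medians of 2.61 and -0.47. Over all tested genes 5.19% rose in gingiva and 3.51% passed in bone. In bone 3 were under an unadjusted p of 0.05, and DESeq2 and limma-voom each called 1 lower. In gingiva DESeq2 called 9 higher and limma-voom 0, where 3 were under an unadjusted p of 0.05 and the median was 1.18. Of the 16 only S100a8 passed for the difference. The summed level of these 16 was 169.8 to 907 CPM in gingiva Co and 876 to 7320 CPM in gingiva Li, and 6282 to 8354 and 1824 to 8045 CPM in bone. Of 19 monocyte and macrophage genes, 3 rose in bone and 9 in gingiva, against 2.66% and 5.19% of all tested genes. How far the number of such cells in each tissue enters these differences was not tested. Nor was it tested which cells of the gingiva made S100a8 and the other transcripts of these lists.

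Of 12 complement genes tested in each tissue, 1 rose and 1 fell in bone and 7 rose in gingiva. The shares over all tested genes were 2.66%, 0.849% and 5.19%. C3 and Cfp passed for the tissue difference, more negative in bone like 0.683% of all tested genes. C3, the central complement component, measured 262, 379, 243 and 281 CPM in bone Co and 342, 335, 196 and 137 CPM in bone Li. The gingiva libraries held 42.1, 41.8, 47.9 and 40.1 CPM in Co and 140.2, 681, 115 and 80.0 CPM in Li. Gingiva Li 2 stood far above the rest, and the bone groups overlapped. The gingiva change was 2.57 ± 0.53, the bone value -0.21 ± 0.45 and the difference -2.77 ± 0.72 (adjusted p = 0.0417), which was lost without any of 16 libraries. Cfp, properdin, the activator of the alternative pathway, measured 60.3, 57.9, 44.2 and 61.9 CPM in bone Co and 86.3, 74.3, 48.8 and 39.0 CPM in bone Li, which overlap. In the gingiva libraries it stood at 5.11, 7.79, 7.93 and 8.02 CPM in Co and 36.2, 63.1, 19.3 and 17.7 CPM in Li, a change of 2.25 ± 0.35. The tissue difference of Cfp was -2.09 ± 0.48 (adjusted p = 0.0227), lost without bone Co 4, gingiva Co 1 or gingiva Li 2.

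Il1rl1, the IL-33 receptor, rose in gingiva by 3.55 ± 0.49 against a bone value of 1.04 ± 0.40 that did not pass, a difference of -2.50 (adjusted p = 0.0379). Steap4, a metalloreductase induced in inflammation, rose in gingiva by 2.68 ± 0.49 against 0.34 ± 0.25 in bone, a difference of -2.33 (adjusted p = 0.0289). These 2 differences were lost without any of 12 and any of 9 libraries. By contrast Il1b did not pass in either tissue (2.33 ± 0.62 in bone, adjusted p = 0.0530, and 2.25 ± 0.84 in gingiva, adjusted p = 0.113), and its groups overlapped in both. Of the 7 neutrophil-attracting chemokines tested, 4 rose in gingiva, against 5.19% of all tested genes. In bone 0 passed by edgeR, 3 were at an unadjusted p under 0.05, and DESeq2 and limma-voom each called 1. Their medians were 2.49 in bone and 1.67 in gingiva. Cxcl5, one of them, measured 37.4, 3.14, 4.28 and 3.72 CPM in bone Co and 52.2, 45.1, 265 and 64.0 CPM in bone Li, a value of 3.16 ± 0.99 that did not pass (adjusted p = 0.0976). In gingiva Cxcl5 measured 47.5, 213, 139.9 and 160.4 CPM in Co and 643, 616, 329 and 569.8 CPM in Li and rose by 1.95 ± 0.43. Bone Co 1 and Li 3 stood apart from the other bone libraries of their groups.

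The largest negative differences among genes with a mean log2 CPM of at least 1 in each tissue also included Myl4, Siglecg, Aqp9, Fam129c and Glipr2. That mean is taken over Co and Li libraries together, and a gene near 1 CPM in the gingiva controls, such as Myl4, could reach it. Myl4, an embryonic and atrial myosin light chain, measured 10.7, 8.18, 6.02 and 4.14 CPM in bone Co and 3.48, 3.39, 5.72 and 2.79 CPM in bone Li. For gingiva the values were 1.26, 0.934, 0.827 and 1.06 CPM in Co and 3.74, 57.4, 13.3 and 8.95 CPM in Li. Gingiva Li 2 was the highest by far, yet the other 3 ligature libraries were also above all gingiva controls. The difference was -5.27 ± 1.08 (adjusted p = 0.0122). Aqp9, the glycerol and urea channel of leukocytes, changed by 1.96 ± 0.39 in gingiva, with a bone value of -1.04 ± 0.42 that did not pass and a difference of -3.00 ± 0.60 (adjusted p = 0.0116). Glipr2 rose in gingiva by 2.69 ± 0.44, did not pass in bone, and had a difference of -2.85 ± 0.59 (adjusted p = 0.0125). The differences of Myl4, Aqp9 and Glipr2 passed without each of the 32 libraries in turn, while the gingiva call of Myl4 was lost without gingiva Co 1, Co 3, Co 4 or Li 2. Without bone Co 3, Co 4 and Li 2 together, all of these differences were lost (edgeR adjusted p = 0.0880, 0.0735 and 0.0907).

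Siglecg, an inhibitory receptor of B cells, measured 71.7, 67.9, 44.2 and 57.7 CPM in bone Co and 25.3, 15.5, 24.03 and 6.81 CPM in bone Li. The values in gingiva were 1.50, 1.29, 0.876 and 0.979 CPM in Co and 7.58, 2.74, 1.46 and 0.864 CPM in Li. The bone groups were apart and the gingiva groups overlapped, and neither change passed alone (-1.75 ± 0.48 in bone and 1.44 ± 0.49 in gingiva). The tissue difference of -3.19 ± 0.72 passed (adjusted p = 0.0202) and was lost without gingiva Li 1. Fam129c, which B cells express, fell in bone (-1.99 ± 0.50) and had a difference of -2.88 ± 0.68 (adjusted p = 0.0266), the latter lost without bone Co 2, bone Li 2, gingiva Co 3 or gingiva Li 1. Its bone call was lost without any of 15 of the 16 bone libraries.

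Of 20 B cell genes, 10 fell in bone, against 0.849% of all tested genes, and none rose, with a median of -1.92. In gingiva 0 of the 15 tested passed by edgeR, DESeq2 or limma-voom, with 2 at an unadjusted p under 0.05, and the median was 1.06 by edgeR and -0.13 by limma-voom. For the tissue difference 2 of 20 passed by edgeR, Spib and Vpreb3, both more negative in bone like 0.683% of all tested genes. Ms4a1, which encodes CD20, measured 44.2, 47.3, 34.7 and 48.0 CPM in bone Co and 9.49, 5.92, 17.7 and 3.80 CPM in bone Li. In gingiva it measured 0, 0.0958, 0.486 and 0.397 CPM in Co and 3.37, 0.191, 0.0971 and 0 CPM in Li, so that Li 1 stood apart from 7 libraries near 0. Ms4a1 fell in bone, with a change of -2.24 ± 0.57 (adjusted p = 0.0446), a call lost without any of 11 of the 16 bone libraries, and its tissue difference of -4.12 ± 1.50 did not pass (adjusted p = 0.143). The summed level of the B cell genes was 436 to 726 CPM in bone Co and 97.2 to 300.3 CPM in bone Li. In gingiva that sum was 14.6 to 22.5 CPM in Co and 12.9 to 64.9 CPM in Li.

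The globin gene Hbb-bs measured 12091, 7929, 6994 and 14582 CPM in bone Co and 3407, 2241, 6251 and 4395 CPM in bone Li. All bone ligature libraries were below all bone controls, and still the bone value of -1.35 ± 0.43 did not pass (adjusted p = 0.104). Its tissue difference of -2.16 ± 0.69 did not pass either (adjusted p = 0.0911). By edgeR 0 of 14 erythroid genes passed in bone, 0 of 12 in gingiva and 0 of 14 for the difference. At an unadjusted p under 0.05 were 12, 0 and 14 of them. The like counts over all tested genes were 3624 of 21205, 4808 of 20143 and 3901 of 22559. DESeq2 called 6 lower in bone and 4 differences more negative in bone, and limma-voom called 7 and 0. The medians were -1.24 in bone and 1.63 in gingiva. The erythroid sum was 22092 to 45272 CPM in bone Co and 6970 to 20558 CPM in bone Li. In gingiva it was 310 to 853 CPM in Co and 294 to 2384 CPM in Li.

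Among the differences more positive in bone, genes of metal binding and of the thioredoxin system stood together. Of 10 metallothionein and oxidative stress genes, 4 passed for the tissue difference, all more positive in bone: Mt2, Mt3, Srxn1 and Txnrd1. In this direction 1.36% of all tested genes passed. Without bone Co 3, Co 4 and Li 2, 2 of the 10 passed. Mt3 (ENSMUSG00000031760.10), a metallothionein that binds zinc and copper, measured 18.3, 21.0, 18.8 and 17.2 CPM in bone Co and 44.6, 32.3, 48.9 and 65.7 CPM in bone Li. Its gingiva values were 42.7, 38.6, 46.8 and 53.1 CPM in Co and 11.5, 9.52, 20.8 and 18.3 CPM in Li. The ligature libraries lay above the controls in bone and below them in gingiva, without overlap in either. The change was 1.34 ± 0.30 in bone (adjusted p = 0.0262) and -1.58 ± 0.28 in gingiva (adjusted p = 0.00545), and the tissue difference was 2.94 ± 0.43 (edgeR adjusted p = 0.000996). The difference held without each library in turn, and without bone Co 3, Co 4 and Li 2 it was 3.02 (adjusted p = 0.0208). The bone call of Mt3 was lost without any of 7 bone libraries.

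Mt1 and Mt2, the widely expressed metallothioneins, rose in bone as well. Mt2 measured 64.1, 57.2, 47.3 and 53.1 CPM in bone Co and 158, 186, 117 and 169.8 CPM in bone Li. The gingiva libraries held 419.7, 407, 370.2 and 446 CPM in Co and 570.0, 666, 399 and 541 CPM in Li. Bone groups were apart, and gingiva Li 3 lay within the controls. Mt2 rose in bone by 1.51 ± 0.17 while the gingiva value of 0.41 ± 0.14 did not pass, a difference of 1.10 ± 0.23 (adjusted p = 0.0140). Mt1 rose in both tissues, by 1.55 ± 0.18 in bone and 0.74 ± 0.17 in gingiva (a gingiva call lost without gingiva Co 3 or Li 2), and its difference of 0.82 (95% interval 0.30 to 1.34) did not pass (adjusted p = 0.0800).

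Txnrd1 (ENSMUSG00000020250.12), thioredoxin reductase of the cytosol, measured 60.4, 72.4, 59.7 and 63.8 CPM in bone Co and 110.3, 92.4, 95.7 and 96.8 CPM in bone Li. In the gingiva libraries it stood at 112, 121, 128 and 133 CPM in Co and 92.8, 114, 92.2 and 93.1 CPM in Li. Bone Li lay above bone Co throughout. In gingiva 3 ligature libraries lay below the controls and Li 2 inside their range. The change was 0.62 ± 0.09 in bone and -0.32 ± 0.08 in gingiva, and the difference 0.96 ± 0.13 had an adjusted p of 0.000384. The gingiva call was lost without any of 8 of the 16 gingiva libraries. Srxn1, sulfiredoxin, which repairs oxidised peroxiredoxins, passed in neither tissue alone (0.55 ± 0.16 in bone, -0.47 ± 0.17 in gingiva) and passed for the difference (1.03 ± 0.25, adjusted p = 0.0318), a call lost without any of 8 libraries. Hspe1, the mitochondrial co-chaperonin, rose in bone by 0.60 ± 0.09 with a gingiva value of -0.09 ± 0.09 and a difference of 0.70 ± 0.13 (adjusted p = 0.0101). The constitutive chaperone Hspa8 rose in both tissues (0.78 ± 0.13 and 0.68 ± 0.09), with a 95% interval of the difference of -0.20 to 0.42.

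A further 4 genes were higher in bone and lower in gingiva. Tmem65, a mitochondrial inner membrane protein, measured 73.1, 72.6, 76.7 and 59.7 CPM in bone Co and 98.5, 96.9, 89.2 and 118 CPM in bone Li. For gingiva the values were 189, 152, 171 and 172 CPM in Co and 109.9, 112, 129 and 140.2 CPM in Li. Groups were apart in both tissues, and the gingiva ligature libraries came down toward the level of bone. The difference was 0.99 ± 0.15 (adjusted p = 0.000996). Trmt5, a tRNA methyltransferase, changed by 0.60 and -0.37 (difference 0.98 ± 0.16, adjusted p = 0.00326). Mrpl48, a protein of the mitochondrial ribosome, changed by 0.37 and -0.33 (difference 0.71 ± 0.12, adjusted p = 0.00450). Ccdc116 changed by 1.36 and -0.71 from low levels (difference 2.07 ± 0.38, adjusted p = 0.00813). The differences of these 4 passed without each library in turn, while the gingiva calls of Trmt5, Mrpl48 and Ccdc116 were lost without any of 15, 13 and 14 of the 16 gingiva libraries and their bone calls without any of 6, 4 and 11 of the 16 bone libraries. Tmem65 lost its bone call without any of 3 libraries and its gingiva call without any of 2. Without bone Co 3, Co 4 and Li 2 together, the differences of Mrpl48 and Ccdc116 were lost (edgeR adjusted p = 0.0922 and 0.116). Those of Tmem65 and Trmt5 still passed (edgeR adjusted p = 0.0208 and 0.0439).

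Prdm1 and Sdc1 are known from plasma cells, and both are also made by other cells, Prdm1 by osteoclasts and epithelium and Sdc1 by epithelium. Prdm1, the transcriptional repressor Blimp-1, measured 14.0, 12.9, 5.45 and 8.31 CPM in bone Co and 33.9, 21.2, 29.7 and 26.5 CPM in bone Li. The values in gingiva were 35.7, 33.9, 54.0 and 52.4 CPM in Co and 24.8, 28.4, 31.3 and 38.8 CPM in Li. Bone Li was above bone Co without overlap, and gingiva Li tended lower with Li 4 inside the range of the controls. Prdm1 rose in bone by 1.45 ± 0.27 (lost without bone Co 4), its gingiva value of -0.50 ± 0.17 did not pass, and the tissue difference was 1.96 ± 0.33 (adjusted p = 0.00436). Sdc1, syndecan-1, rose in bone by 1.54 ± 0.20, had a gingiva value of 0.33 ± 0.10 that did not pass, and a difference of 1.21 ± 0.24 (adjusted p = 0.0101). Of the 8 plasma cell genes these 2 rose in bone, against 2.66% of all tested genes. Mzb1, which is largely restricted to B-lineage cells, passed for the difference in the other direction.

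Serpinb8, a serpin that inhibits furin, measured 15.3, 10.3, 8.32 and 7.05 CPM in bone Co and 25.5, 21.9, 22.8 and 24.7 CPM in bone Li. In gingiva it measured 78.5, 56.7, 89.3 and 87.6 CPM in Co and 31.4, 21.1, 57.4 and 59.4 CPM in Li. The bone groups were apart, and in gingiva Li 1 and 2 lay below all controls. Serpinb8 rose in bone by 1.21 ± 0.18, its gingiva value of -0.87 ± 0.27 did not pass, and the difference was 2.09 ± 0.35 (adjusted p = 0.00330). Ostn, osteocrin, a peptide of the periosteum and of muscle, measured 0.534, 2.43, 1.31 and 1.82 CPM in bone Co and 2.82, 5.18, 10.2 and 7.32 CPM in bone Li. Its gingiva values were 3.42, 4.82, 4.26 and 1.69 CPM in Co and 0.778, 0.742, 2.35 and 2.17 CPM in Li. The bone groups were apart and the gingiva groups overlapped through Li 3 and 4. Ostn rose in bone by 2.05 ± 0.51, its gingiva value of -1.22 ± 0.55 did not pass, and its difference of 3.29 ± 0.78 (adjusted p = 0.0275) was lost without any of 6 libraries and its bone call without any of 11 of the 16 bone libraries. Dkk2, a Wnt antagonist, passed in neither tissue alone (1.05 ± 0.32 in bone, -0.73 ± 0.24 in gingiva) and passed for the difference (1.77 ± 0.41, adjusted p = 0.0266), lost without any of 5 libraries. The skeletal muscle sum was 183 to 3864 CPM in gingiva Co and 605 to 3904 CPM in gingiva Li, and its part in the gingiva value of Ostn was not tested.

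Of 16 osteoblast genes tested, Ibsp and Ifitm5 rose in bone, where 2.66% of all tested genes rose. In gingiva Spp1 rose and Bglap and Bglap2 fell, against 5.19% higher and 2.3% lower over all tested genes. For the tissue difference 0 of 16 passed by edgeR. An unadjusted p under 0.05 was found for 8 of them, against 3901 of all 22559 tested genes. DESeq2 called 3 of these differences and limma-voom 1. Ibsp, bone sialoprotein, measured 1750.2, 2416, 1082 and 1719 CPM in bone Co and 4209.9, 5061, 3592 and 4578 CPM in bone Li, an increase of 1.324 ± 0.27. Ifitm5, a membrane protein of mineralising osteoblasts, rose in bone by 1.11 ± 0.23. Without bone Co 4 both bone calls were lost, that of Ibsp also without bone Co 1 and that of Ifitm5 without bone Li 4. Bglap, osteocalcin, measured 1423, 1646, 930.4 and 1301 CPM in bone Co and 515, 565, 971 and 953 CPM in bone Li, which overlap. In gingiva Bglap measured 228, 90.9, 126 and 93.3 CPM in Co and 23.6, 7.29, 45.8 and 38.7 CPM in Li and fell by 2.21 on the log2 scale (adjusted p = 0.0401), a call lost without any of 8 libraries. Its bone value of -0.82 ± 0.31 did not pass, and neither did the difference of 1.40 ± 0.71. Bglap and Bglap2 are near-identical copies between which reads can be split in either way.

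By edgeR, the 5 lists whose median changes lay furthest apart were those of marrow neutrophil precursors (-0.51 in bone and 4.18 in gingiva), nasal glands (-1.64 and 2.40), neutrophils (-0.47 and 2.61), B cells (-1.92 and 1.06) and erythroid cells (-1.24 and 1.63). Few genes of the first 2 lists passed. For marrow neutrophil precursors these were 0 of 12 in bone, 1 of 11 in gingiva and 1 of 12 for the difference. For nasal glands they were 0 of 17 in bone, 1 of 15 in gingiva, which fell, and 0 of 17 for the difference. Over all tested genes 3.51%, 7.49% and 2.04% passed. The median nasal gland sum was 639 CPM in gingiva Co and 233 CPM in gingiva Li, although the list median there was positive. Which cells made these transcripts in gingiva was not tested. The place of the nasal gland list rested on the 3 bone libraries with the largest shares of these transcripts: without bone Co 3, Co 4 and Li 2 its bone median was 2.05, and by limma-voom it was 1.06. The gingiva medians were also smaller by limma-voom, at 0.62 for marrow neutrophil precursors, 0.42 for nasal glands, 1.18 for neutrophils, -0.13 for B cells and 0.27 for erythroid cells, so the order of the lists depends on the tool. Counts of called members moved with it as well. DESeq2 called 13 genes of collagen and matrix assembly and 6 endothelial genes higher in bone and 15 monocyte and macrophage genes higher in gingiva. In gingiva limma-voom called 8 genes of collagen and matrix assembly, 5 metalloproteinases and inhibitors and 2 neutrophil-attracting chemokines higher. B cell genes called lower in bone were 15 by DESeq2 and 16 by limma-voom, and clock genes called lower in bone were 5 by each. Osteoblast genes called by DESeq2 were 4 higher in bone and 6 lower in gingiva. The medians lay close together for the chemokines that attract monocytes and lymphocytes (0.98 and 1.04) and for collagen and matrix assembly. The summed level of the 12 genes of marrow neutrophil precursors was 123 to 276 CPM in gingiva Co and 345 to 1249.6 CPM in gingiva Li, against 8886 to 12059 CPM in bone Co.

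**Figure D4:**
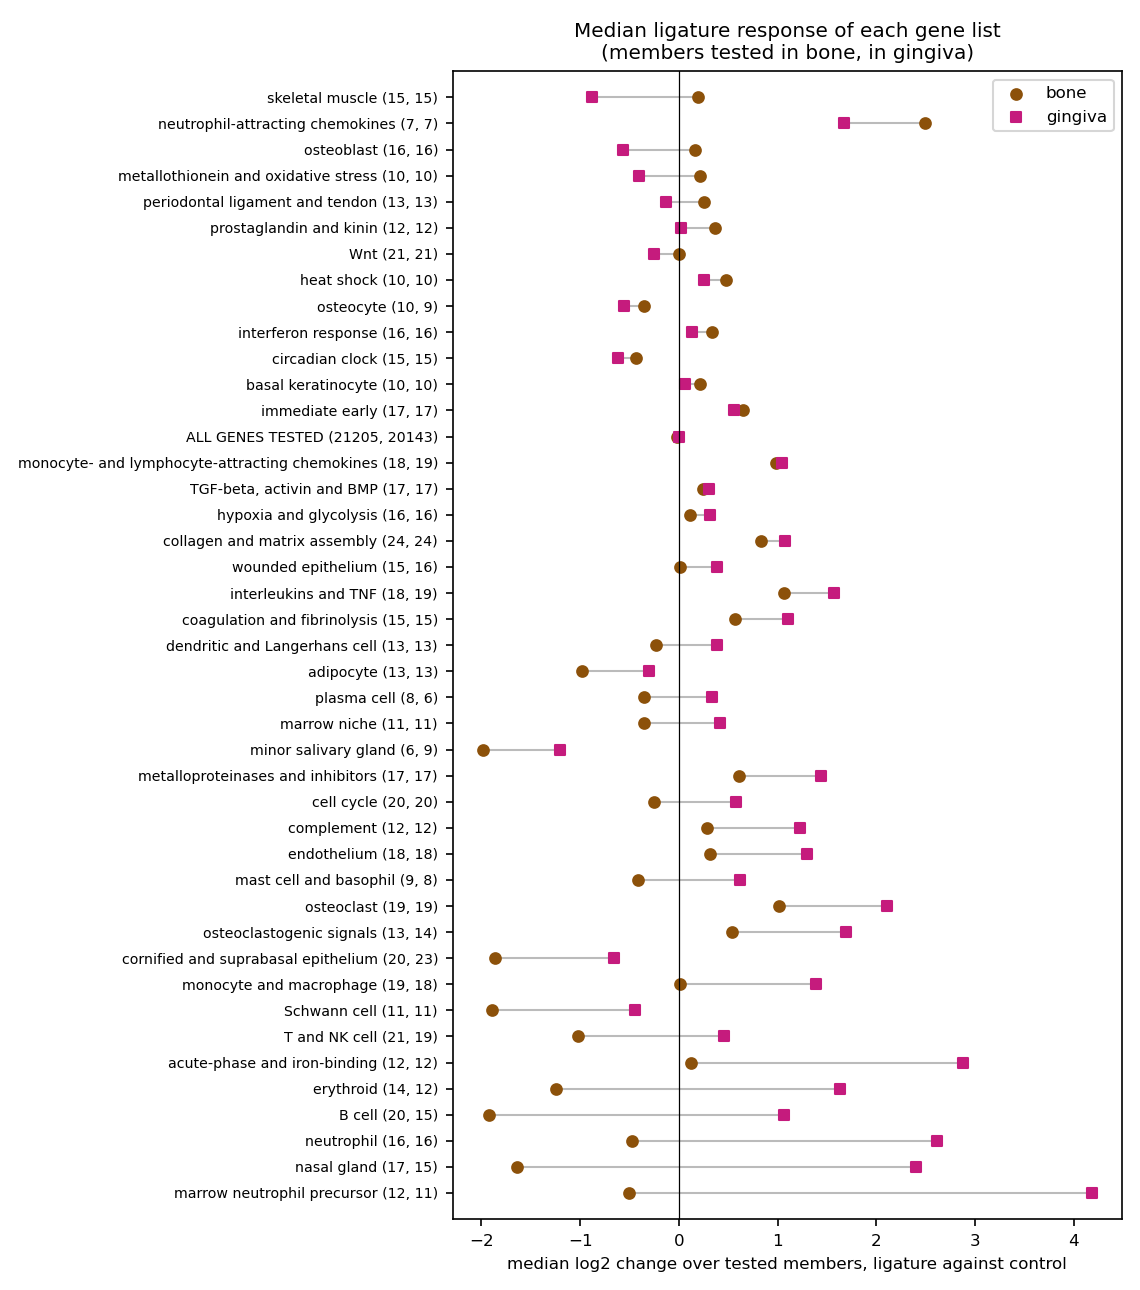
Median log2 change, ligature against control, over the tested members of each of 42 gene lists and over all genes tested (x axis), brown circles for bone and magenta squares for gingiva, ordered by bone minus gingiva. The osteoclast medians are 1.02 in bone and 2.11 in gingiva, and the neutrophil medians -0.47 and 2.61.

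The promoter windows of the genes that rose in both tissues were searched for the same 4 patterns. A single RefSeq window was matched by symbol for 122 of the 175 genes, 231 of the 307 with a difference more positive in bone, 119 of the 154 with one more negative in bone, and 14255 of the tested genes. TGANTCA was present in 13.9% of the windows of genes that rose in both, among them Mmp3, Mmp13, Il6, Sele, Selp and Ccl9, in 5.19% and 4.20% of the windows of the 2 difference sets and in 5.33% of all tested genes. TTGCNNAA was present in 13.1% of the windows of genes that rose in both, among them Saa3, Mmp3, Ptgs2, Il6 and Ctsk, and in 16.8% of those more negative in bone, 6.49% of those more positive in bone and 8.21% of all tested. The NF-kB pattern was present in 4.92% of the windows of genes that rose in both and 1.20% of all tested, and CACGTG in 7.38% and 7.58%. In all 27025 promoters of the table the shares were 6.87%, 9.55%, 1.17% and 6.05%. These are shares of windows that hold the letters, and no test was made of them.

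The bone calls and the tissue differences rest on the scaling of libraries. With library totals in place of TMM, 0 tissue differences passed by edgeR (1470 genes at an unadjusted p under 0.05) and 5 genes passed in bone, and the median bone change over all genes moved by 0.15 on the log2 scale. With the size factors of DESeq2 in the edgeR fit, and with DESeq2 itself, each of the 141 calls that the text gives for named genes stood. DESeq2 called 1488 tissue differences against 461 by edgeR, so that its keeping of these calls was a weak check. Of the 141 calls, 119 stood by limma-voom and 55 with library totals. With Co and Li libraries alone 98 of 140 stood, and without bone Co 3, Co 4 and Li 2 it was 9 of 84.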

How the data were processed

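Poly(A) RNA of whole bone and gingiva was sequenced, and the deposited values are estimated counts per gene, as whole numbers, with 1 column per library. Per the submitters' processing notes, Trimmomatic 0.39, FastQC 0.11.9, HISAT2 2.2.1, StringTie 2.1.7, DESeq2 1.32.0 and GRCm39 were used. Settings and the strand of counting are not named there, so reads of a gene and of its antisense partner cannot be told apart. The columns labelled CR were read as the composite resin groups. The labels do not say whether bone and gingiva libraries of one number come from 1 animal, so p-values measure only the spread between these libraries.

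From these counts, changes were computed in R 4.3.3 with edgeR 4.0.16 (quasi-likelihood test, two-sided, Benjamini-Hochberg adjustment over all genes tested, TMM scaling, genes kept at a minimum count of 10 and a total of 15). The tissue difference came from 1 fit of all 32 libraries in 8 groups, and each tissue's change from a fit of its 16 libraries. CPM values use the TMM factors of the joint fit. Ranges ± are standard errors, and a change is the log2 of Li over Co. DESeq2 1.42.0 and limma-voom (limma 3.58.1) served as alternatives, beside other scalings, filters, thresholds and left-out libraries. The procedure was tested on simulated data with known changes placed in bone Li. The test of the tissue difference recovered 31% of 100 changes of 2-fold and 60% of 100 changes of 4-fold. It made 7 false calls among 21992 genes. A difference that did not pass is therefore not shown to be absent.

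The genes compared and the gene lists were chosen with earlier results of these data known. Genes to name were drawn from a pool. It held the 8 largest called differences and the 8 largest shared changes in each direction. For these the mean log2 CPM was at least 1 in each tissue. The pool also held up to 8 genes called in opposite directions, up to 2 called members of each list, and a fixed set (Saa3, Il6, Mmp3, Il1b, Ptgs2, Mmp13, Tnfsf11, Tnfrsf11b, Ctsk, Acp5, Bglap, S100a8, Cxcl12, Ms4a1, Hbb-bs, Postn and Col1a1). Not every pool gene is described, and those left out include Akr1c18, Syt13, Fgf14, Postn and Col1a1. Other named genes were chosen after their values were seen. They include Mt1, Mt2, Srxn1, Atp6v1a, Ackr1, Timp1, Selp, Sele, Bdkrb1, Socs3 and Ccl9. Dcstamp, Ocstamp, Atp6v0d2, Slc9b2, Ibsp, Ifitm5, Cxcl5, Fbn1, Vcan, Hspa8, Prss46 and Nyap2 were also chosen in this way. Promoter sequences are those of RefSeq on GRCm38.p6, matched by symbol.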

Additional observations from a re-analysis of the deposited data

Results flagged for a closer look

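In groups of 4 libraries, a library was picked out where its gap to the nearest other library, divided by the range of the group, passed the critical value of Dixon's test at the 95% level. Chance alone picks out about 5% of groups, and 26 of 292 combinations of gene and group were picked out. In bone Co, library 2 was the high one for the osteoclast genes Ocstamp (16.4 CPM), Atp6v0d2 (115 CPM), Dcstamp (19.7 CPM) and Slc9b2 (74.2 CPM) and for Tnfsf11 (15.1 CPM). Library 1 was high for Hspe1 (45.2 CPM) and Cxcl5 (37.4 CPM), library 3 was low for Cxcl12 (537 CPM), and library 4 was the outlying one for Ccl2 (0.383 CPM). In bone Li, the outlying libraries were Li 1 for Il6 (16.1 CPM), Li 2 for Steap4 (80.8 CPM) and Prg4 (23.5 CPM), Li 3 for Cxcl5 (265 CPM), and Li 4 for Cxcl12 (237 CPM) and Icam2 (8.96 CPM).

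In gingiva Co, library 1 stood apart for Mrpl48 (56.7 CPM) and Cfp (5.11 CPM) and library 4 for Ccl2 (3.73 CPM). In gingiva Li, library 2 stood apart for C3 (681 CPM), Txnrd1 (114 CPM), Prg4 (89.3 CPM) and Fbn1 (258 CPM), library 1 for Fam129c (11.8 CPM), Ms4a1 (3.37 CPM) and Hbb-bs (842 CPM), and library 4 for Ibsp (237 CPM).

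The ligature effect differed between bone and gingiva by the test of the difference itself for 33 named genes. The bone change was the more positive for Ostn (3.29 on the log2 scale), Mt3 (2.94), Serpinb8 (2.09), Ccdc116 (2.07), Prdm1 (1.96), Dkk2 (1.77), Sdc1 (1.21), Mt2 (1.10), Srxn1 (1.03), Tmem65 (0.99), Trmt5 (0.98), Txnrd1 (0.96), Atp6v1a (0.86), Mrpl48 (0.71) and Hspe1 (0.70). It was the more negative for the immune genes S100a8 (-3.80), Siglecg (-3.19), Fam129c (-2.88), Itgam (-2.79), C3 (-2.77), Il1rl1 (-2.50), Lyz2 (-2.35) and Cfp (-2.09), and for the stromal and endothelial genes Cxcl12 (-2.54), Vcam1 (-1.92), Icam2 (-1.81) and Ackr1 (-1.52). The remaining ones were Myl4 (-5.27), Aqp9 (-3.00), Glipr2 (-2.85), Steap4 (-2.33), Grina (-1.59) and Tmc6 (-1.13).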

How the results depend on the processing

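In the main analysis 461 genes had a called tissue difference, 745 passed in bone, 1509 in gingiva, 180 alike in both and 9 in opposite directions, and the counts under other settings are given in that order. Library totals as scaling gave 0 (edgeR, 1470 at an unadjusted p under 0.05), 5, 1482, 4 and 0, and moved the median bone change of all genes by 0.149. No expression filter gave 171, 410, 921, 116 and 2, and a filter of CPM above 1 gave 655, 919, 1729, 212 and 14. DESeq2 gave 1488, 1904, 2755, 450 and 72, and limma-voom 805, 1811, 1013, 213 and 17. Fits of Co and Li alone gave 198, 398, 407, 71 and 1. Without bone Co 3, Tra 3 and LiTra 1 they were 1354, 1775, 1509, 274 and 39. Without bone Co 3, Co 4 and Li 2, a setting chosen after seeing the data, they were 22, 7, 1509, 5 and 0. An adjusted p under 0.01 gave 41, 189, 337, 47 and 0, and a change of at least 1 on the log2 scale 163, 224, 641, 81 and 2. Leaving out 1 library at a time gave 144 to 909, 202 to 1232, 521 to 2191, 87 to 240 and 1 to 17. With the replicate number as a block the counts were 355, 585, 1320, 168 and 4, and 413 differences passed with number and treatment as a block shared by the tissues. Same-numbered bone and gingiva libraries deviated together with r from -0.203 to 0.364, and 7 of 16 bone libraries correlated best with their own number. With 4 gingiva libraries to choose from, some do so by chance, so this cannot decide whether they share an animal. The main fits took no pairing, and 269 of the 461 differences were also called with the shared block. Co and Li of 1 number deviated together with r from -0.262 to 0.121 in bone and -0.339 to 0.00521 in gingiva. The 307 differences more positive in bone and 154 more negative became 566 and 788 without bone Co 3, Tra 3 and LiTra 1, 778 and 710 by DESeq2, 491 and 314 by limma-voom, 56 and 107 at a change of at least 1, 204 and 209 with the shared block and 285 and 197 with TMM within each tissue. DESeq2 size factors in edgeR gave 510, 795, 1504, 188 and 10. No named gene reversed under these settings. Of 141 calls of named genes, 55 were kept with library totals, 120 with no filter, 119 by limma-voom, 128 with the replicate block and 141 by DESeq2, while 98 of 140 were kept with Co and Li alone and 9 of 84 without bone Co 3, Co 4 and Li 2. Why the counts moved was not tested.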
